A study of Mus musculus with 17 samples.

Results

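The Clec genes of the mouse are genes of C-type lectin and C-type lectin-like proteins, and the members were taken as every gene of the deposited table whose symbol begins with Clec followed by a digit. This gave 30 members of 18262 genes. RNA was sequenced from flash frozen lungs of C57BL/6 mice in 4 groups of 4 libraries, and from 1 library of the injected cells. Tumor-bearing mice had received 500000 cells of M3-9-M, a mouse rhabdomyosarcoma line carrying firefly luciferase and mCherry, in the gastrocnemius muscle of the leg. The treatment was 8000000 IL12-GEMy cells by vein, bone marrow cells engineered to be IL-12 secreting myeloid cells by lentiviral transduction and cultured with SCF, FLT3L and IL-6. The 4 groups were tumor_GEMy (tumor, cells on day 12 after inoculation, lungs 3 days later on day 15), tumor_untreated (tumor, no cells, day 15), naive_GEMy (no tumor, cells, lungs taken after 3 days) and naive_untreated (neither).

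No control of cells without IL-12 was analysed here, so the effect of IL-12 cannot be told apart from that of the injected cells. Nothing in the labels says that each library of a group is a different mouse, so the p-values describe spread among libraries that may be technical. Sample descriptions of tumor-bearing mice carry a 1 in all untreated and a 2 in all treated samples, and whatever this number stands for cannot be told apart from treatment. Letters after the number differ among the libraries of a group (BL, NC, TL and BR untreated, NC, BL, TR and TL treated), and their meaning is not given. The lung libraries held 27566840 to 36815046 assigned reads, read back from the smallest step of the values, and the cell product 31111310. Hemoglobin transcripts took 0.09996 to 5.415% of lung reads, the highest in tumor_untreated replicate 4. Lung epithelium markers summed to 37960 to 61428 RPM in lungs and to 85.7 RPM in the cell product. Pearson correlations between replicates over all tested genes on the log2 scale were 0.973 to 0.997.

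C-type lectin receptors of myeloid cells bind sugars, lipids or products of dead cells. The activating ones pair with the adaptors FcRgamma (Fcer1g) or DAP12 (Tyrobp), or carry a hemITAM of their own, and signal through the kinase Syk and the adaptor Card9 to NF-kappaB and cytokine genes such as Il1b. Others carry an inhibitory ITIM that recruits phosphatases, and some members are not receptors of myeloid cells at all but proteins of endothelium, secreted proteins, or ligands of natural killer (NK) cell receptors. In the lung such receptors are best known for recognition of fungi and mycobacteria by macrophages, monocytes, neutrophils and dendritic cells.

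Of the 30 members, 23 lie on chromosome 6 (build mm10), with Clec4n, Clec4d and Clec4e next to each other among the members in the order of their start positions. Values are FPKM, fragments per kilobase of gene per 1000000 assigned reads, with the whole genomic extent of a gene (exons and introns) as its length. Levels of different genes are therefore compared below as RPM, reads per 1000000, per kilobase of merged exons of GENCODE M21. In naive_untreated lungs the 3 highest members on this scale were Clec2d at 152 ± 17.1, Clec3b at 120 ± 8.28 and Clec14a at 119 ± 11.0 RPM per exon kilobase (SD, n = 4), and the last 2 did not differ beyond their spread. Clec1a at 22.5 ± 2.93 and Clec7a at 19.1 ± 4.79 followed, also within their spread of each other. Clec4e was near the low end there, at 0.584 ± 0.156 RPM per exon kilobase.

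In 18 members at least 4 lungs reached 0.5 FPKM, the minimum for the test, and 4 more (Clec12b, Clec16a, Clec4b1 and Clec4g) passed a minimum of 0.5 RPM. The other 8, Clec2e, Clec2f, Clec2g, Clec2l, Clec3a, Clec4a4, Clec4b2 and Clec4f, had at most 14 reads in any lung and were not tested. Clec4d and Clec4e reached the FPKM minimum in 8 lungs each and Clec4a2 in 6, in each case tumor-bearing lungs only. Clec5a reached it in 11 lungs, too few of them naive to pass without the tumor-bearing ones. Counts over the 18 are therefore descriptions and not support. On the RPM scale all of these genes passed in all 16 lungs. Fold changes are log2 differences of FPKM + 0.5 from limma over the 16 lungs, which understate the change of genes near or under 0.5 FPKM. A gene was called at a Benjamini-Hochberg adjusted p under 0.05 within a comparison.

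The comparison of tumor_untreated with naive_untreated lungs asked what a tumor in the leg changed in the lung. Of the 30 members, 9 rose, 2 fell, 7 were not called and 12 were under the minimum. Over all tested genes 16.9% were called higher and 27.2% lower. After median-of-ratios scaling the split over all genes was 2416 higher and 1751 lower, against 1733 higher and 2797 lower as deposited, while 10 members were then higher and 2 lower. The 9 that rose were Clec4e, Clec4d, Clec7a, Clec4a1, Clec4a3, Clec5a, Clec12a, Clec4n and Clec4a2. Each of these 9, and both that fell, had groups that did not overlap, as had 14.1% of all tested genes on the higher and 24.1% on the lower side. The median log2 fold change was 0.49 over the 18 members and -0.05 over all tested genes. On the RPM scale 9 of 22 members rose and 3 fell, where 14.7% of all tested genes were called higher and 26.0% lower. The median on that scale was smaller, at 0.19 over the 22 members and -0.09 over all tested genes.

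**Figure D1:**
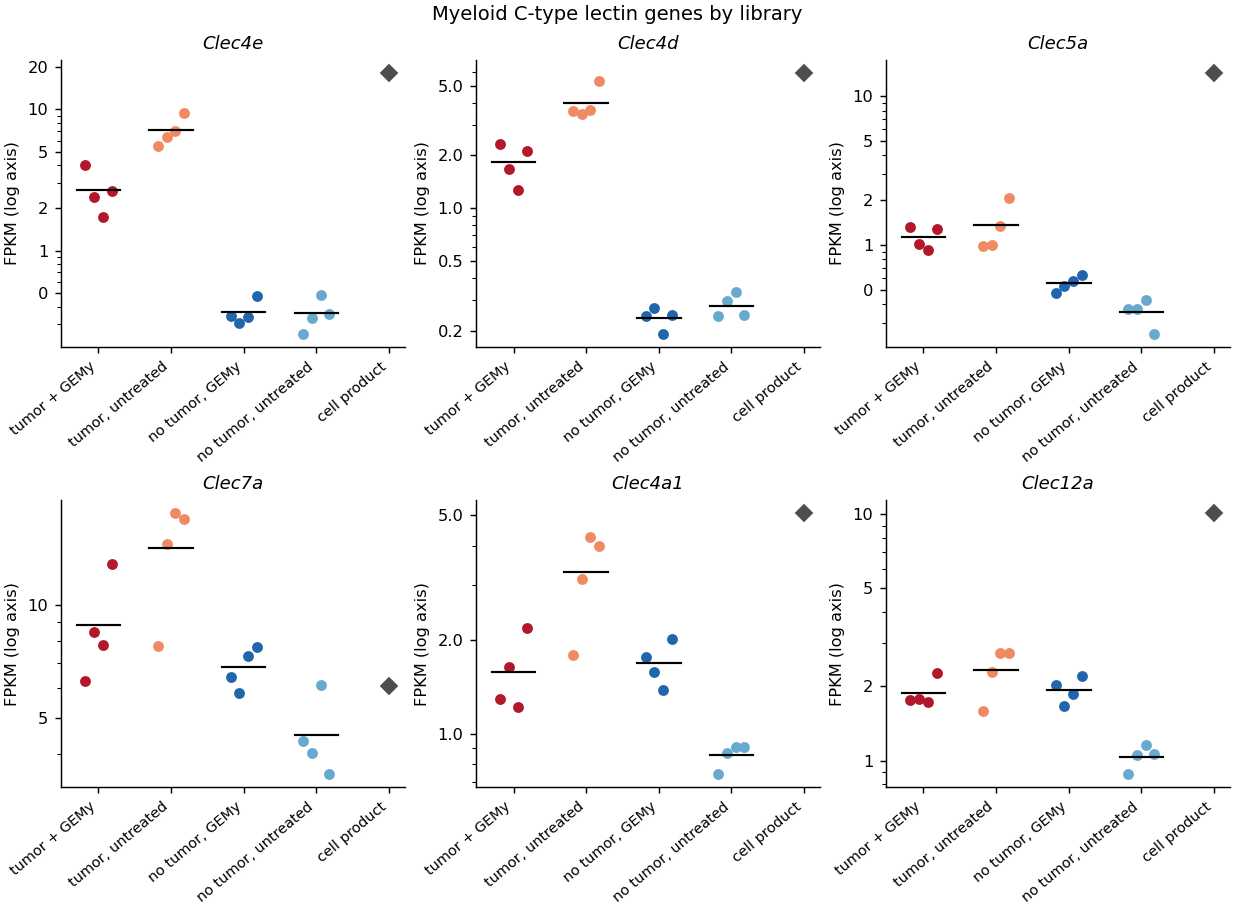
FPKM (log axis) of 6 myeloid members in each library of the 4 lung groups and in the cell product, with a line at each group's mean (n = 4; 1 library of the product). Clec4e and Clec4d were at 1.27 to 9.46 FPKM in tumor-bearing lungs and under 0.5 FPKM in all 8 naive lungs.

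Clec4e encodes Mincle, a receptor for mycobacterial glycolipids and for a protein released by dying cells, which signals through FcRgamma. It lies on chromosome 6, 123281789 to 123289871, on the minus strand. It had 4.04, 2.40, 1.73 and 2.64 FPKM in tumor_GEMy, 5.54, 6.39, 7.05 and 9.46 FPKM in tumor_untreated, 0.345, 0.308, 0.339 and 0.480 FPKM in naive_GEMy and 0.257, 0.333, 0.487 and 0.358 FPKM in naive_untreated lungs. All tumor-bearing lungs were above all naive lungs, and the untreated tumor-bearing lungs were above the treated ones. Mean FPKM was 7.11 in tumor_untreated and 0.359 in naive_untreated lungs, a ratio of 19.8, and the log2 fold change was 3.13 (SE 0.18, adjusted p = 1.13e-08, limma). On RPM, where the added 0.5 weighs less, the log2 fold change was 4.09 (SE 0.22).

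Clec4d, its neighbour, encodes MCL, which pairs with Mincle and signals through the same adaptor. It had 2.32, 1.67, 1.27 and 2.12 FPKM in tumor_GEMy, 3.56, 3.42, 3.64 and 5.31 FPKM in tumor_untreated, 0.243, 0.271, 0.192 and 0.246 FPKM in naive_GEMy and 0.242, 0.295, 0.334 and 0.245 FPKM in naive_untreated lungs. Again the 3 ranges of tumor_untreated, tumor_GEMy and naive lungs did not overlap, and the 2 naive groups did. The mean was 3.98 FPKM in tumor_untreated and 0.279 FPKM in naive_untreated lungs, a ratio of 14.3 (log2 fold change 2.51, SE 0.13, adjusted p = 4.25e-09).

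Clec5a and Clec4n, further activating receptors, also rose. Clec5a, the DAP12-coupled receptor MDL-1, had 1.32, 1.01, 0.927 and 1.28 FPKM in tumor_GEMy, 0.993, 1.01, 1.33 and 2.08 FPKM in tumor_untreated, 0.475, 0.532, 0.577 and 0.629 FPKM in naive_GEMy and 0.371, 0.372, 0.429 and 0.253 FPKM in naive_untreated lungs. Tumor-bearing lungs were all above naive lungs, and treated and untreated tumor-bearing lungs overlapped. Its log2 fold change in tumor_untreated over naive_untreated lungs was 1.08 (SE 0.14, adjusted p = 2.20e-05). Clec4n, which encodes the mannan receptor Dectin-2, had the highest level per exon kilobase among activating receptors in both naive groups, while Clec4d had the higher mean on that scale in both tumor-bearing groups, in tumor_GEMy within its spread. It had 0.969, 1.26, 1.14 and 1.36 FPKM in tumor_GEMy, 1.11, 1.61, 2.10 and 2.36 FPKM in tumor_untreated, 0.912, 1.04, 0.820 and 1.16 FPKM in naive_GEMy and 0.704, 0.796, 0.903 and 0.869 FPKM in naive_untreated lungs. All tumor-bearing lungs were above all naive_untreated lungs, and tumor_GEMy overlapped with tumor_untreated and with naive_GEMy (tumor_untreated over naive_untreated log2 0.77, SE 0.14, adjusted p = 0.000436). Of the 6 activating receptors listed, 4 were tested and all 4 rose, where 16.9% of all tested genes were called higher. Of these 4, Clec4e and Clec4d met the minimum through tumor-bearing lungs only. Clec5a would not have met it without tumor-bearing lungs either, so this count is a description and not support. Clec4b1 was lower in tumor_untreated lungs, with groups that did not overlap, but did not pass on RPM (log2 -0.30, adjusted p = 0.0794). Clec4b2 had 1 read in 4 tumor_untreated and 0 reads in 4 naive_untreated libraries.

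The promoters of 3 of these receptors and of the endothelial member Clec14a are shown because these genes moved in opposite directions in tumor-bearing lungs. RefSeq windows (GRCm38.p6) of 250 bases before to 50 after the start were found for 23 of the 30 members. Capitals mark matches on either strand to short motifs of factors of myeloid genes, TTGCNNAA for C/EBP, GAGGAA for PU.1 and TGANTCA for AP-1. No matches overlapped each other in these 4 windows.
Clec4e (chr6:123289822-123290121, minus strand): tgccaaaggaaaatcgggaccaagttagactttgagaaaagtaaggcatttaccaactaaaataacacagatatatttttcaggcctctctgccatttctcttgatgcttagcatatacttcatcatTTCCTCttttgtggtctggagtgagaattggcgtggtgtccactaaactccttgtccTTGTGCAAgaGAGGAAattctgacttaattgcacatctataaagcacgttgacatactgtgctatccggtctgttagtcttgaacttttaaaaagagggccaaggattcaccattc
Clec4d (chr6:123261857-123262156, plus strand): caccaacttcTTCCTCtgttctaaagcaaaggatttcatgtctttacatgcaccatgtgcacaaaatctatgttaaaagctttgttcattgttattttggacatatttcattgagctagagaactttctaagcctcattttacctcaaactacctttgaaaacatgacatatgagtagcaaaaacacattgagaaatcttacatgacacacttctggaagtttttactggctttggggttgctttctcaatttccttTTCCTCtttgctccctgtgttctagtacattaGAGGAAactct
Clec5a (chr6:40585756-40586055, minus strand): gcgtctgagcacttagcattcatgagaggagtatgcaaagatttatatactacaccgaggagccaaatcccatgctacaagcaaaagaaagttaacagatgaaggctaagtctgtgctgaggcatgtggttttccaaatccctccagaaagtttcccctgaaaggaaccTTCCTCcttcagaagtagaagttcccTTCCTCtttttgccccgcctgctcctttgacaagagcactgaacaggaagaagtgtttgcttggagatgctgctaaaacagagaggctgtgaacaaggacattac
Clec14a (chr12:58269209-58269508, minus strand): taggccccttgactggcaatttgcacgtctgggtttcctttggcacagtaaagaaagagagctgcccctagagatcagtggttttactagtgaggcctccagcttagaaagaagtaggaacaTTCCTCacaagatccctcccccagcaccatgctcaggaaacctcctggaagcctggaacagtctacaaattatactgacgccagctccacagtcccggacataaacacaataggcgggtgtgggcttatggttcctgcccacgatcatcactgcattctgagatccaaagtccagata
In the Clec4e window a C/EBP match stood at -66 to -59 from the start and PU.1 matches at -123 to -118 and at -56 to -51. The Clec4d window held 3 PU.1 matches, that of Clec5a 2 and that of Clec14a 1. Among the 23 members with a window, 13 held a PU.1 match, 5 a C/EBP match and 4 an AP-1 match. Of all 32851 promoter windows of the same length, 28.3% held PU.1, 10.8% C/EBP and 7.81% AP-1 letters. Members were counted by gene, and some, such as Clec7a, have more than 1 window, while these shares are per window. The 2 are therefore not directly comparable. A match describes letters only.

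Clec7a encodes Dectin-1, the hemITAM receptor of fungal beta-glucans, and was the highest of the hemITAM group per exon kilobase. It had 6.27, 8.48, 7.83 and 12.9 FPKM in tumor_GEMy, 7.78, 14.6, 17.6 and 17.0 FPKM in tumor_untreated, 6.41, 5.84, 7.30 and 7.73 FPKM in naive_GEMy and 4.33, 4.04, 6.13 and 3.54 FPKM in naive_untreated lungs. Replicate 1 of tumor_untreated was low beside the other 3, and the 4 untreated naive lungs were under all of the untreated tumor-bearing ones. The log2 fold change of tumor_untreated over naive_untreated was 1.52 (SE 0.24, adjusted p = 0.000152). GENCODE M21 annotates Clec7a as a polymorphic pseudogene, and 29.4% of its values were whole reads within 0.02, so some of its reads were divided by a rule that is not stated. The other hemITAM members did not pass. Clec9a, a receptor of conventional dendritic cells for actin of dead cells, had a difference of 0.09 with a 95% interval of -0.16 to 0.34, while 4 of 6 tested markers of these cells rose and 1 fell. Clec1b, the podoplanin receptor of platelets, had 0.31 with an interval of -0.06 to 0.69, and none of 7 tested platelet markers was called.

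Clec4a1 and Clec4a3, relatives of the inhibitory receptor gene Clec4a2, both rose. Clec4a1 had 1.29, 1.64, 1.22 and 2.18 FPKM in tumor_GEMy, 1.79, 3.12, 4.25 and 4.01 FPKM in tumor_untreated, 1.76, 1.58, 1.38 and 2.00 FPKM in naive_GEMy and 0.743, 0.870, 0.903 and 0.904 FPKM in naive_untreated lungs. Again tumor_untreated replicate 1 was the lowest of its group, and all 4 untreated naive lungs lay under the other 12. Its log2 fold change in tumor_untreated over naive_untreated lungs was 1.43 (SE 0.19, adjusted p = 2.93e-05). Clec4a3 had 1.22, 1.57, 1.33 and 2.04 FPKM in tumor_GEMy, 1.65, 2.45, 3.18 and 3.05 FPKM in tumor_untreated, 1.37, 1.29, 1.11 and 1.92 FPKM in naive_GEMy and 0.697, 0.970, 1.01 and 0.798 FPKM in naive_untreated lungs. All untreated naive lungs lay under the remaining lungs, and tumor_untreated replicates 2 to 4 were the 3 highest (log2 1.15, SE 0.16, adjusted p = 7.14e-05). The Clec4a genes are close copies of one another, so reads may have been shared among them. Every value of Clec4a1 and Clec4a3 was a whole read number within 0.02, which gave no sign of divided reads for these genes. For Clec4a2 and for Clec4a4, 70.6% of the values were whole, so some of their reads were divided. Whether whole reads were assigned to the right copy cannot be checked here.

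Among the receptors with an ITIM, Clec12a, which encodes a receptor for uric acid crystals on myeloid cells, had the highest level per exon kilobase. It had 1.76, 1.77, 1.73 and 2.28 FPKM in tumor_GEMy, 1.59, 2.28, 2.73 and 2.72 FPKM in tumor_untreated, 2.03, 1.67, 1.86 and 2.20 FPKM in naive_GEMy and 0.882, 1.05, 1.15 and 1.07 FPKM in naive_untreated lungs. Every untreated naive lung was under every other lung, and the other 3 groups overlapped (tumor_untreated over naive_untreated log2 0.86, SE 0.12, adjusted p = 5.21e-05). Clec4a2, which encodes the inhibitory receptor DCIR, ranged over 0.543 to 0.836 FPKM in tumor_untreated and 0.176 to 0.333 FPKM in naive_untreated lungs (log2 0.66, SE 0.08, adjusted p = 1.54e-05). Clec12b did not pass on RPM (-0.09, interval -0.55 to 0.37).

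The 2 members that fell are not myeloid receptors. Clec14a, a membrane protein of endothelium on chromosome 12, had 70.2, 67.9, 62.9 and 82.0 FPKM in tumor_GEMy, 90.7, 70.9, 74.3 and 69.0 FPKM in tumor_untreated, 84.6, 84.8, 92.0 and 102 FPKM in naive_GEMy and 103, 123, 128 and 124 FPKM in naive_untreated lungs. Every other lung was below all 4 untreated naive lungs. The mean was 76.2 ± 9.93 FPKM in tumor_untreated and 120 ± 11.1 FPKM in naive_untreated lungs (SD, n = 4; log2 -0.65, SE 0.10, adjusted p = 0.000181). Clec3b, which encodes tetranectin, a secreted protein that binds plasminogen, had 14.8, 14.6, 15.9 and 13.2 FPKM in tumor_GEMy, 15.2, 15.6, 14.4 and 11.5 FPKM in tumor_untreated, 19.1, 17.8, 19.2 and 16.1 FPKM in naive_GEMy and 19.6, 17.2, 17.3 and 19.2 FPKM in naive_untreated lungs. Untreated tumor-bearing lungs were under all 8 naive lungs (log2 -0.37 against naive_untreated, SE 0.09, adjusted p = 0.00505). Of 8 fibroblast markers 5 fell in the same comparison, with sums of 1596 to 2092 RPM in tumor_untreated and 2448 to 3230 RPM in naive_untreated lungs, and their part in the Clec3b value was not tested. Clec1a, an endothelial receptor for fungal melanin, differed by -0.01 (interval -0.25 to 0.24), and Clec11a, a secreted growth factor of bone and marrow, by -0.28 (interval -0.59 to 0.04). Clec16a, which takes part in autophagy, was called lower on RPM (-0.20, adjusted p = 0.0303), a call lost without tumor_untreated replicate 4 or without naive_untreated replicate 1, 3 or 4 (adjusted p = 0.0587 to 0.109).

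**Figure D2:**
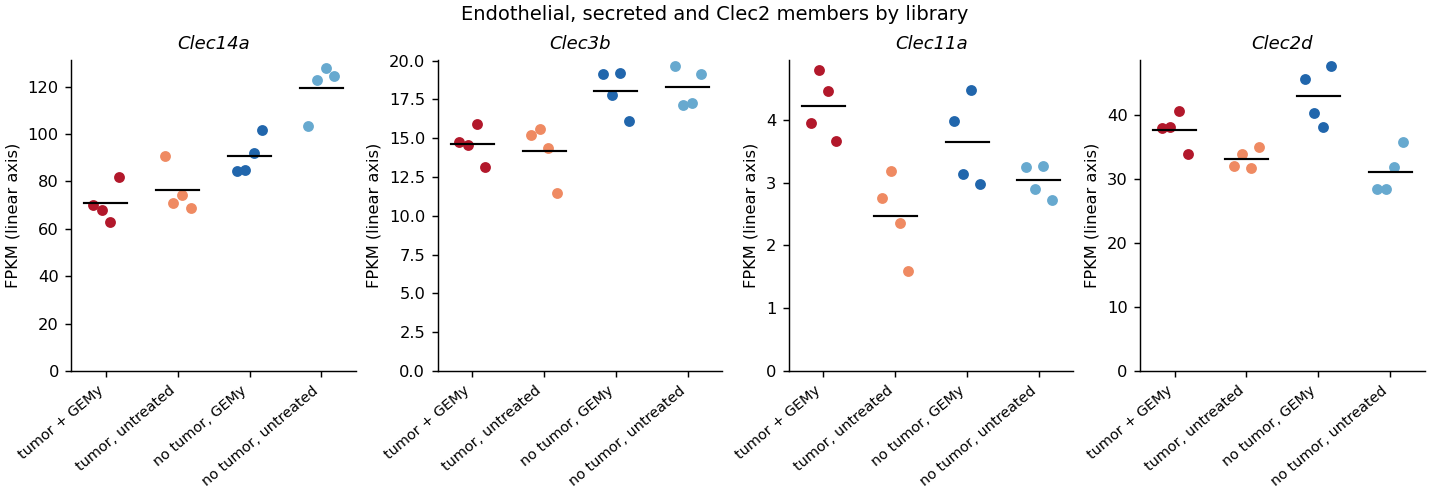
FPKM (linear axis from 0) of Clec14a, Clec3b, Clec11a and Clec2d in each lung library, with a line at the group mean (n = 4). Clec14a was at 103 to 128 FPKM in naive_untreated lungs and at 62.9 to 102 FPKM in the other 3 groups.

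Members of the Clec2 group, ligands of NK cell receptors, and the sugar-binding receptors did not pass in tumor_untreated against naive_untreated lungs. Clec2d, whose product holds NK cells back through an inhibitory receptor, differed by 0.10 (interval -0.09 to 0.29), and Clec2i by 0.09 (interval -0.14 to 0.32). Clec10a, a macrophage and dendritic cell lectin for galactose-type sugars, had 1.57, 1.37, 1.49 and 2.18 FPKM in tumor_GEMy, 1.46, 1.71, 1.86 and 1.92 FPKM in tumor_untreated, 1.63, 1.41, 1.37 and 1.45 FPKM in naive_GEMy and 1.14, 1.44, 1.60 and 1.59 FPKM in naive_untreated lungs. Its 4 groups overlapped, and the difference of tumor_untreated over naive_untreated lungs was 0.21 (interval -0.02 to 0.43). None of its 17 values was a whole read number within 0.02. Clec4g, an endothelial lectin of liver and lymph node, differed by -0.08 on RPM (interval -0.51 to 0.35).

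Marker lists moved in the same lungs, and in bulk lung fewer cells of a type and less RNA per cell cannot be told apart. Of 12 neutrophil markers, 10 rose in tumor_untreated over naive_untreated lungs, and their summed level was 1840 to 5730 RPM in tumor_GEMy, 3332 to 5590 in tumor_untreated, 333 to 525 in naive_GEMy and 367 to 515 in naive_untreated lungs. All 9 tested monocyte and macrophage markers rose, with sums of 797 to 1135 RPM in tumor_GEMy, 821 to 1408 in tumor_untreated, 664 to 866 in naive_GEMy and 419 to 483 in naive_untreated lungs. Of 10 endothelial markers 4 fell and none rose, with sums of 4097 to 4629 RPM in tumor_GEMy, 3847 to 5109 in tumor_untreated, 4574 to 4754 in naive_GEMy and 4852 to 5627 in naive_untreated lungs. Of the other lists, NK cell markers rose in 7 of 7 tested, T cell markers in 4 of 6 and erythroid markers in 2 of 7, B cell markers fell in 5 of 6 and epithelial markers in 7 of 8, and alveolar macrophage markers had 1 rise and 1 fall among 8. Plasmacytoid dendritic cell markers had 1 rise and 1 fall among 3. No marker of any of these lists was at 0 in any lung group, and their part in the changes of the Clec genes was not tested. The lowest monocyte sum among tumor_untreated lungs, 821 RPM, was that of replicate 1. Its neutrophil sum, 4760 RPM, was above those of replicates 2 and 3. Among the 18 members tested on FPKM, replicate 1 was also the lowest of its group for Clec7a, Clec4a1, Clec4a3, Clec12a, Clec4e, Clec5a, Clec4n, Clec10a and Clec2i. It was the highest for Clec14a and Clec1a, and Clec4d, Clec4a2 and Clec9a were lowest in replicate 2. Of members tested on RPM only, replicate 1 was the highest for Clec12b and Clec16a and the lowest for Clec4b1.

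**Figure D3:**
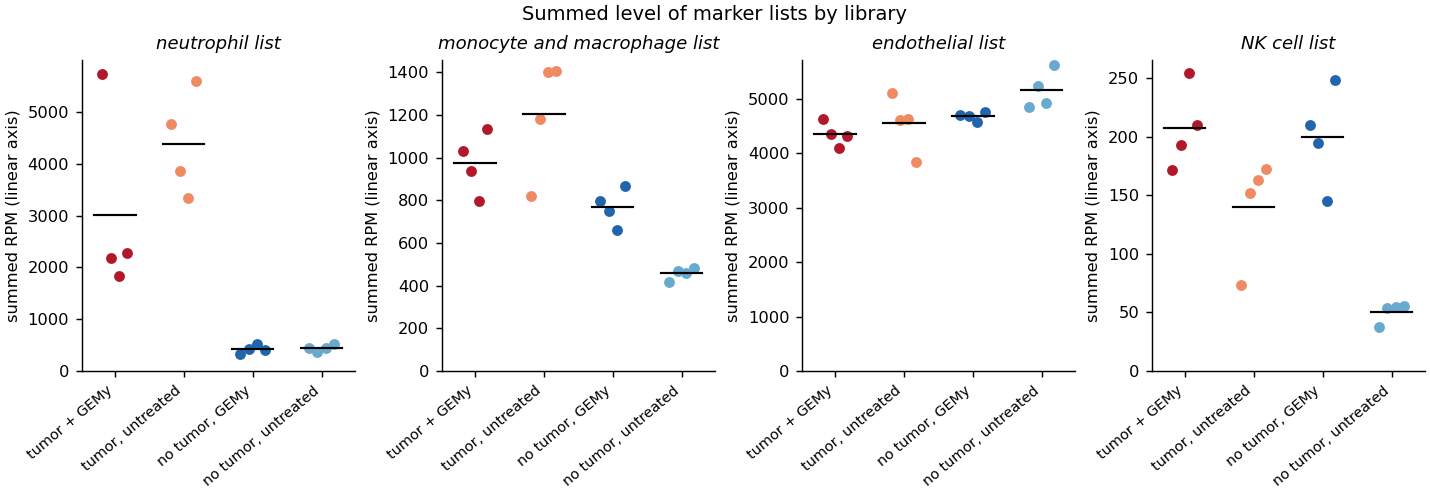
Summed RPM (linear axis from 0) of 4 marker lists in each lung library, with a line at the group mean (n = 4). The neutrophil list was at 1840 RPM or more in all 8 tumor-bearing lungs and at 525 RPM or less in all 8 naive lungs.

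Of the 24 genes of the C-type lectin signalling list, 22 were tested and 18 rose and 1 fell in tumor_untreated over naive_untreated lungs. The largest rises were Il1b, the gene of interleukin-1 beta (log2 3.15, SE 0.22, adjusted p = 5.96e-08), and Fcer1g, the adaptor of Mincle (log2 1.71, SE 0.14, adjusted p = 3.33e-07). The 1 fall was the kinase gene Src (log2 -0.47, SE 0.09, adjusted p = 0.00109). The median over the list was 0.64, against -0.05 over all tested genes.

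The comparison of naive_GEMy with naive_untreated lungs asked what the injected cells changed in mice without a tumor. Of the 18 tested members 3 rose, Clec12a, Clec4a1 and Clec2d, and 1 fell, Clec14a. Over all genes 5.60% were called higher and 1.50% lower, a split of 576 and 154, which was 487 and 290 after quantile normalization. Clec12a averaged 1.94 ± 0.229 FPKM in naive_GEMy and 1.04 ± 0.114 FPKM in naive_untreated lungs (SD, n = 4; log2 0.66, SE 0.12, adjusted p = 0.00193). Clec4a1 averaged 1.68 FPKM in naive_GEMy and 0.855 FPKM in naive_untreated lungs (log2 0.68, SE 0.19, adjusted p = 0.0379). That call of Clec4a1 was lost without any 1 naive_untreated replicate or without naive_GEMy replicate 1, 2 or 4, tumor_GEMy replicate 2 or tumor_untreated replicate 2 (adjusted p = 0.0505 to 0.126). A pseudocount of 1 (0.0597), no minimum (0.0643) or the hemoglobin covariate (0.0610) ended it as well.

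Clec2d had 38.0, 38.1, 40.6 and 33.9 FPKM in tumor_GEMy, 32.1, 33.9, 31.8 and 35.1 FPKM in tumor_untreated, 45.6, 40.3, 38.1 and 47.7 FPKM in naive_GEMy and 28.5, 28.5, 31.9 and 35.8 FPKM in naive_untreated lungs. All 4 treated naive lungs were above all 4 untreated naive lungs, and treated tumor-bearing lungs overlapped untreated ones (naive_GEMy over naive_untreated log2 0.46, SE 0.09, adjusted p = 0.00351). Of the NK cell markers 6 of 7 tested rose, with summed levels of 145 to 248 RPM in naive_GEMy and 37.5 to 55.8 RPM in naive_untreated lungs, and their part in the Clec2d value was not tested. Clec14a averaged 90.8 ± 8.15 FPKM in naive_GEMy and 120 ± 11.1 FPKM in naive_untreated lungs (log2 -0.39, SE 0.10, adjusted p = 0.0304). Its call was lost without naive_GEMy replicate 1, 2 or 3 or naive_untreated replicate 2, 3 or 4 (adjusted p = 0.0555 to 0.0968). None of 10 endothelial markers was called, and their summed level was below that of all naive_untreated lungs in each naive_GEMy lung.

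Clec4e and Clec4d did not pass in treated naive lungs. The difference was 0.02 for Clec4e (95% interval -0.36 to 0.39) and -0.08 for Clec4d (interval -0.36 to 0.20). Both genes were under 0.5 FPKM in these lungs, which narrows the intervals. On RPM the difference was 0.04 for Clec4e (interval -0.43 to 0.51) and -0.20 for Clec4d (interval -0.56 to 0.16). Clec5a had groups that did not overlap, at 0.475 to 0.629 FPKM in naive_GEMy and 0.253 to 0.429 FPKM in naive_untreated lungs, but missed the threshold (log2 0.30, adjusted p = 0.236). Clec4a3, whose groups did not overlap either, also missed it (log2 0.48, adjusted p = 0.1001), as did Clec7a (log2 0.56, adjusted p = 0.190). With only the 2 naive groups in the fit, Clec5a (adjusted p = 0.0163), Clec4a3 (0.0224) and Clec7a (0.0233) were called. Of 12 neutrophil markers none was called, and 5 of 9 monocyte and macrophage markers rose. In the signalling list 3 of 22 rose and none fell, led by Fcer1g (log2 0.89, adjusted p = 0.000726) and Tyrobp, the gene of DAP12 (log2 0.78, adjusted p = 0.000603).

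The comparison of tumor_GEMy with tumor_untreated lungs asked what the cells changed in lungs of mice with a tumor. Of the 18 tested members 5 fell, Clec4e, Clec4d, Clec4a1, Clec4a3 and Clec2i, and Clec11a rose. Over all genes 3.72% were called lower and 3.00% higher, a split of 383 and 309, which was 86 and 124 with only these 2 groups in the fit and 1664 and 694 with array weights. The tumor_untreated libraries are shared with the first comparison, where they were compared with naive_untreated, so the 2 sets of values are not independent. Clec4e averaged 2.704 FPKM in tumor_GEMy and 7.11 FPKM in tumor_untreated lungs, a ratio of 0.380 (log2 -1.27, SE 0.18, adjusted p = 0.000488). Clec4d averaged 1.84 FPKM in tumor_GEMy and 3.98 FPKM in tumor_untreated lungs, a ratio of 0.463 (log2 -0.94, SE 0.13, adjusted p = 0.000488). These 2 falls were called in every alternative run.

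The other 3 falls came from overlapping groups. Clec4a1 averaged 1.58 FPKM in tumor_GEMy and 3.29 FPKM in tumor_untreated lungs (log2 -0.83, SE 0.19, adjusted p = 0.0120), a call lost with only the 2 groups in the fit (adjusted p = 0.112). Clec4a3 (log2 -0.58, adjusted p = 0.0462) and Clec2i, a ligand of an activating NK cell receptor (log2 -0.39, adjusted p = 0.0424), lay just past the threshold. Clec2i ranged over 0.3004 to 0.5158 FPKM in tumor_GEMy and 0.419 to 0.836 FPKM in tumor_untreated lungs. Clec4a3 lost its call without tumor_GEMy replicate 1, 2 or 3, tumor_untreated replicate 2, 3 or 4, naive_GEMy replicate 1 or 2, or any naive_untreated replicate (adjusted p = 0.0537 to 0.142). It was lost too on RPM (adjusted p = 0.0607), with only the 2 groups in the fit (0.149), and with a pseudocount of 0.1, no minimum, median-of-ratios scaling, quantile normalization, voom or the hemoglobin covariate (0.0520 to 0.0795). Clec2i lost its call without tumor_GEMy replicate 1, 2 or 3, tumor_untreated replicate 2, 3 or 4, naive_GEMy replicate 2 or 3, or naive_untreated replicate 1 or 2 (adjusted p = 0.0541 to 0.132), with only the 2 groups in the fit (0.149), with no minimum (0.0729) and with the hemoglobin covariate (0.0551). Without tumor_untreated replicate 1, 8 members were lower instead of 5, with Clec12a, Clec4n (log2 -0.58, adjusted p = 0.00290) and Clec7a (log2 -0.89, adjusted p = 0.00859) added. Lower calls over all genes were 588 without that library and 383 with it. With all libraries Clec7a was at -0.63 (adjusted p = 0.138) and Clec4n at -0.42 (adjusted p = 0.0866).

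Clec11a had 3.95, 4.79, 4.45 and 3.66 FPKM in tumor_GEMy, 2.76, 3.18, 2.36 and 1.59 FPKM in tumor_untreated, 3.99, 3.14, 4.47 and 2.97 FPKM in naive_GEMy and 3.25, 2.89, 3.27 and 2.73 FPKM in naive_untreated lungs. The 4 treated tumor-bearing lungs were above the 4 untreated ones, and both naive groups overlapped the treated or the untreated tumor-bearing lungs. The log2 fold change of tumor_GEMy over tumor_untreated was 0.69 (SE 0.15, adjusted p = 0.00921), a call lost with only the 2 groups in the fit (adjusted p = 0.0625). Clec14a (-0.11, interval -0.33 to 0.12), Clec3b (0.05, interval -0.15 to 0.25) and Clec5a (-0.15, interval -0.45 to 0.14) did not pass.

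Among 12 neutrophil markers 2 fell and none rose in tumor_GEMy against tumor_untreated lungs, with overlapping sums. Replicate 1 of tumor_GEMy had the highest sum of all lungs, 5730 RPM, and the other 3 treated lungs had 1840 to 2284 RPM, under all 4 untreated tumor-bearing lungs. Of 9 monocyte and macrophage markers Csf1r fell (log2 -0.58, adjusted p = 0.0276), and of 10 endothelial markers Sox17 fell (log2 -0.40, adjusted p = 0.0203). Ncr1 (log2 0.82) and Nkg7 (0.96) of 7 NK cell markers rose, as did Xcr1 (0.51) and Irf8 (0.50) of 6 conventional dendritic cell markers, Bst2 (0.79) of 3 plasmacytoid dendritic cell markers and Chil3 (0.63) of 8 alveolar macrophage markers (adjusted p = 0.000556 to 0.0440). Replicate 1 of tumor_GEMy also had the highest Clec4e and Clec4d of its group, at 4.04 and 2.32 FPKM, both under the lowest untreated tumor-bearing lung. In the signalling list 8 of 22 fell and none rose, with Il1b (log2 -1.42, adjusted p = 0.000858) and Tyrobp (log2 -0.56, adjusted p = 0.0105) the largest. The part of these lists in the values of the Clec genes was not tested.

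**Figure D4:**
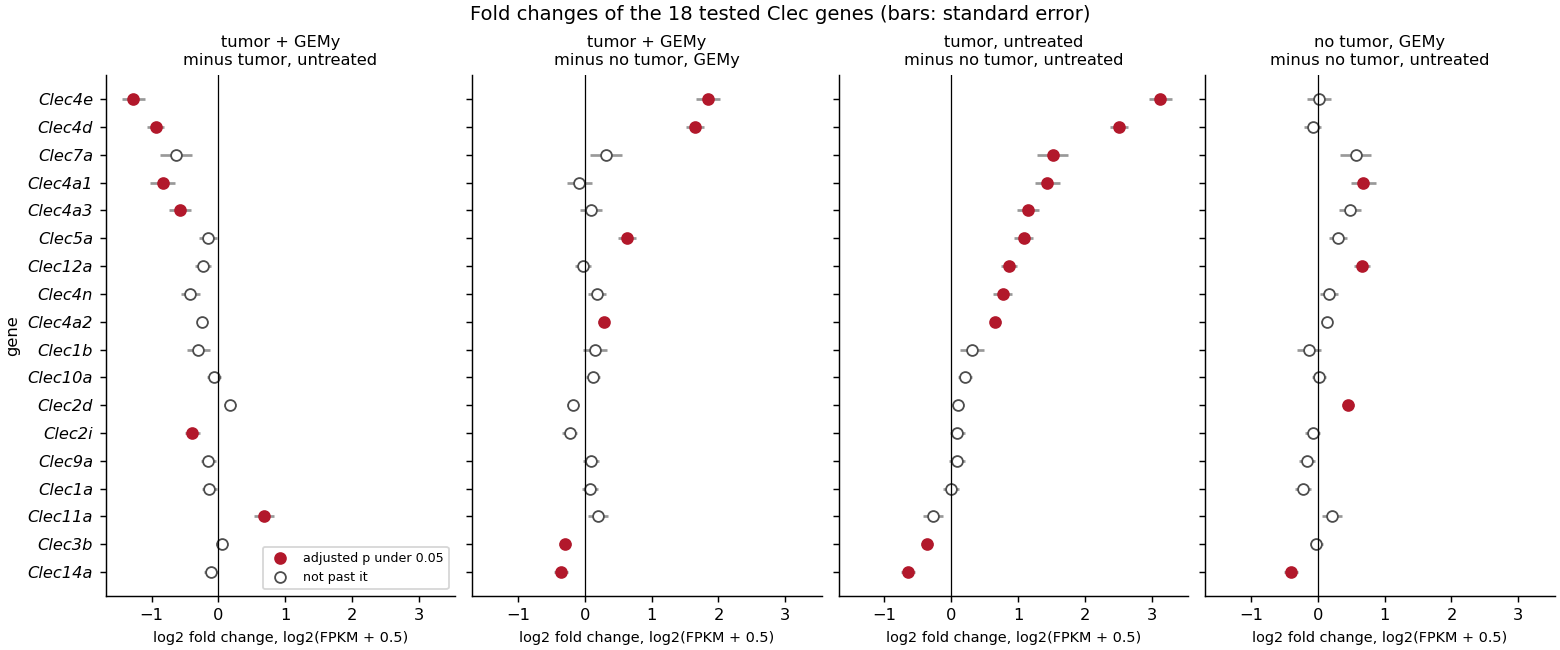
Log2 fold changes on log2(FPKM + 0.5) of the 18 tested members in 4 comparisons, with the SE as a bar and filled points for an adjusted p under 0.05. Clec4e and Clec4d stand at 3.13 and 2.51 in untreated tumor-bearing over untreated naive lungs and at -1.27 and -0.94 in treated over untreated tumor-bearing lungs.

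The comparison of tumor_GEMy with naive_GEMy lungs asked what the tumor changed among treated mice. Clec4e (log2 1.84, SE 0.18, adjusted p = 1.49e-05), Clec4d (1.65, SE 0.13, adjusted p = 1.88e-06), Clec5a (0.63, adjusted p = 0.00924) and Clec4a2 (0.29, adjusted p = 0.0317) rose. Clec14a (-0.36, adjusted p = 0.0341) and Clec3b (-0.29, adjusted p = 0.0462) fell. Over all genes 4.03% were called higher and 9.17% lower, a split of 414 and 943, which was 543 and 396 after median-of-ratios scaling and 527 and 658 after quantile normalization. After either scaling neither fall was called (Clec14a log2 -0.29 and -0.33, adjusted p = 0.0922 and 0.103; Clec3b log2 -0.22 and -0.25, adjusted p = 0.108 and 0.0560). The call of Clec4a2 was lost without tumor_GEMy replicate 1 or 4 or naive_GEMy replicate 1, 2 or 3 (adjusted p = 0.0565 to 0.101). Clec14a also lost its call without tumor_GEMy replicate 1, 2 or 3 or any naive_GEMy replicate (adjusted p = 0.0517 to 0.0832), and Clec3b without 11 of the 16 libraries (adjusted p = 0.0531 to 0.127), the exceptions being tumor_GEMy replicate 3, tumor_untreated replicates 1, 2 and 4 and naive_GEMy replicate 4. With the hemoglobin share as a covariate, Clec5a (log2 0.45, adjusted p = 0.209) and Clec4a2 (log2 0.23, adjusted p = 0.313) lost their calls, as did Clec14a (log2 -0.32, adjusted p = 0.281) and Clec3b (log2 -0.18, adjusted p = 0.466). Over all genes that fit called 106 higher and 48 lower. Clec12a (-0.03, interval -0.29 to 0.22) and Clec4a1 (-0.08, interval -0.48 to 0.32) did not pass. Of the neutrophil markers 10 of 12 rose, of the endothelial markers 3 of 10 fell, and of the tested monocyte and macrophage markers 2 of 9 rose. In the signalling list 3 of 22 rose, led by Il1b (log2 1.55, adjusted p = 0.000399) and Nlrp3 (log2 0.35, adjusted p = 0.0116).

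The interaction, the effect of the tumor among treated lungs minus its effect among untreated lungs, tested whether the 2 effects differed. It was called for 6 of the 18 tested members, all lower, with Clec4a1 at -1.51 (SE 0.27, adjusted p = 0.00426), Clec4e at -1.29 (SE 0.25, adjusted p = 0.00685) and Clec7a at -1.20 (SE 0.34, adjusted p = 0.0459). Clec4a3 was at -1.06, Clec12a at -0.89 and Clec4d at -0.86 (adjusted p = 0.00612 to 0.0132). Over all genes 5.22% were called lower and 1.04% higher, a split of 537 and 107, which was 406 and 223 after quantile normalization. With voom on estimated reads Clec4e (adjusted p = 0.0711), Clec4d (0.155) and Clec7a (0.0560) lost the call. Clec7a also lost it without any library other than tumor_GEMy replicate 4, tumor_untreated replicate 1 and naive_untreated replicate 3 (adjusted p = 0.0540 to 0.0989). Its call ended too with no minimum (adjusted p = 0.0818), quantile normalization (0.0607) or the hemoglobin covariate (0.0594). In the signalling list 10 of 22 tested genes were lower and none higher, led by Il1b (-1.60) and Fcer1g (-1.41), and 7 of 9 monocyte and macrophage markers were lower.

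The cell product, 1 library with no replicate, was above all 16 lungs for 9 of the 18 members tested in lungs, below all for 6 and within their range for 3. Of all 10284 genes tested in lungs, 42.9% were above all lungs in the product and 39.2% below all, so these counts say nothing particular about the members. Clec4e had 18.03 FPKM (4534 reads, exact 95% Poisson interval 17.5 to 18.6 FPKM) in the product and 0.257 to 9.46 FPKM in lungs. Clec5a had 14.3 FPKM in the product and 0.253 to 2.08 in lungs, and Clec12a 10.1 FPKM in the product and 0.882 to 2.73 in lungs. Clec4d, at 5.89 FPKM in the product, lay near its highest lung value of 5.31. Clec4a1 (5.08 FPKM), Clec4n (3.79), Clec2i (3.32), Clec1b (3.21) and Clec4a2 (1.36) of the product were also above all lungs, while Clec7a, Clec4a3 and Clec10a lay within the lung ranges. Per exon kilobase the highest in the product were Clec4d at 48.5, Clec4n at 45.9, Clec4a1 at 41.7 and Clec5a at 40.6 RPM.

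**Figure D5:**
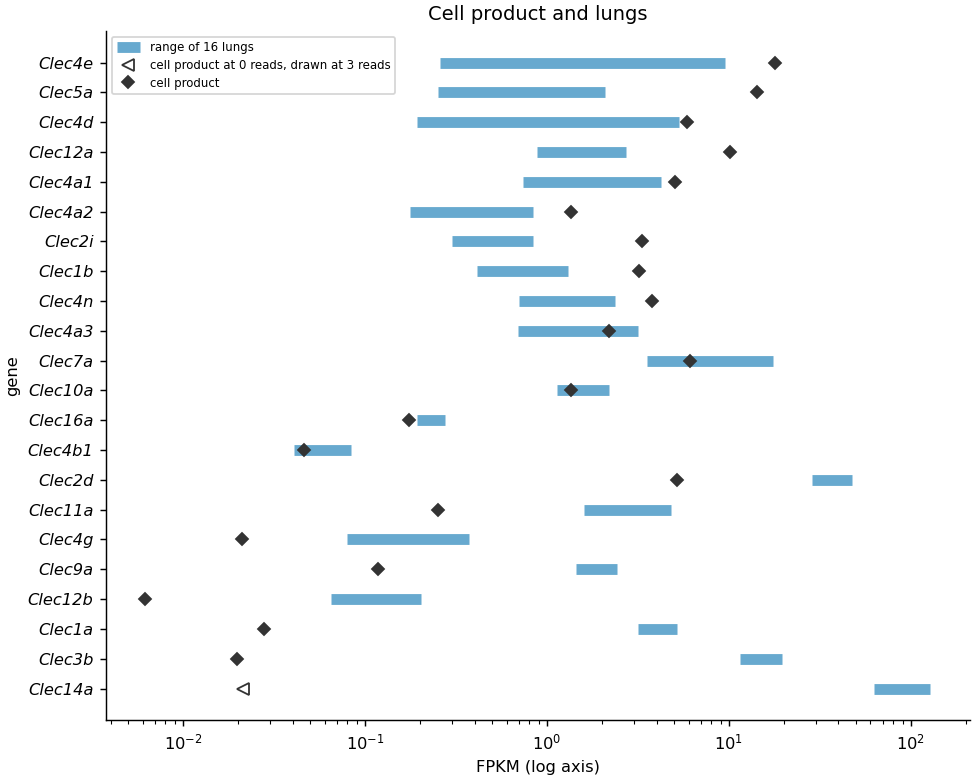
FPKM (log axis) of 22 members in the cell product (diamond, 1 library) and their range over 16 lungs (bar); a gene with 0 product reads is drawn at 3 reads as an open triangle. Clec4e, Clec5a and Clec12a of the product stand at 18.03, 14.3 and 10.1 FPKM, above every lung.

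The members of endothelium, Clec3b and Clec9a were low in the product. Clec14a had 0 reads, where a floor of 3 reads (1-sided) is 0.0212 FPKM, and 62.9 to 128 FPKM in lungs. Clec3b had 4 reads, Clec1a 22 and Clec9a 58, at 0.0198, 0.0279 and 0.117 FPKM in the product, while no lung was under 11.5, 3.16 and 1.45 FPKM for these 3 genes in that order. Clec2d was at 5.19 FPKM in the product and 28.5 to 47.7 FPKM in lungs. Among members with few lung reads, Clec4b2 had 68 reads in the product and at most 1 in a lung, Clec4a4 48 in the product and at most 13.1 in a lung, and Clec2f 20 in the product and at most 2 in a lung. Intervals and floors cover counting error only. The summed monocyte and macrophage list was 3298 RPM in the product and 419 to 1408 RPM in lungs, and the neutrophil list 3029 RPM in the product and 333 to 5730 RPM in lungs. The platelet list, whose cells use Clec1b, summed to 1085 RPM in the product and 53.3 to 259 RPM in lungs. The conventional dendritic cell list, whose cells use Clec9a, summed to 658 RPM in the product and 307 to 546 RPM in lungs. Cd209a of that list was at 0 in the product, and a sum does not show which genes carry it. How much of a lung value came from the injected cells was not tested.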

How the data were processed

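RNA of 16 lungs and 1 cell product was sequenced. Per the labels' protocols, flash frozen lung was extracted with TRIzol and libraries followed standard Illumina protocols. STAR 2.7.3a, Partek and the build mm10 are named in the submitters' processing notes. The authors deposited FPKM for 18262 genes in 17 columns. Multiplying FPKM by the listed span in kilobases gave columns that each total 1000000, that is, RPM. Its smallest step gave the read number of each library. Of the values under 1000 reads 86.7 to 88.4% were whole within 0.02, and why the rest were fractional is not given in the sources used here.

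The minimum of 0.5 FPKM in 4 or more lungs left 10284 genes, taken to log2(FPKM + 0.5). limma 3.58.1 in R 4.3.3 fitted 4 group means with trend and robust moderation, 2-sided tests and Benjamini-Hochberg adjustment within each comparison. A fit on log2(RPM + 0.5) over 15422 genes covered members under the minimum. Simulated data with known changes were used to test the fit. Intervals of differences are 95% limma intervals. Genes with values in every library were Clec4e, members called in a pair of groups whose means spanned at least 2-fold, and the member of each role group with the highest mean FPKM over the lungs; Clec11a and Clec4n were added after their values were seen. Of the signalling list, the 2 largest changes past the threshold on each side were named. Members, lists and tests were chosen with earlier results of these data known. Alternatives were RPM, plain moderation, voom on estimated reads, a replicate block, array weights, quantile normalization, median-of-ratios scaling, pseudocounts of 0.1 and 1, no minimum or 1 FPKM as the minimum, a fit of only the compared groups, hemoglobin as a covariate, and leaving out each library. Gene positions are those of the deposited table, and promoter windows are those of RefSeq. Figures used matplotlib 3.10.9 in python 3.11.15.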

Additional observations from a re-analysis of the deposited data

Results flagged for a closer look

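Among 88 groups of 4 libraries over 22 members, 5 held a library far from the other 3 by Dixon's criterion, which chance gives in about 1 of 20 groups. Clec12a was 2.277 FPKM in tumor_GEMy replicate 4. Clec12b was 1.634 RPM in tumor_GEMy replicate 3. Clec16a was 38.71 RPM in tumor_untreated replicate 4 and 48.03 RPM in naive_untreated replicate 2, each the lowest of its group. Clec4d was 5.313 FPKM in tumor_untreated replicate 4, the highest of its group.

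For 6 members the limma interaction test of tumor and treatment was past the threshold in the reported fit. Clec4e, Clec4d and Clec7a among them lost the call with voom. The values on the log2 scale were -1.514 for Clec4a1, -1.288 for Clec4e, -1.199 for Clec7a, -1.06 for Clec4a3, -0.8946 for Clec12a and -0.8609 for Clec4d.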

How the results depend on the processing

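Of 34 called gene values, 965 alternative values were computed. Of these 856 kept direction and call, 109 lost the call and 0 reversed, and 20 of the 34 gene values were called in every alternative run. The counts of members called in tumor_untreated against naive_untreated stayed within 1.5 times, at 9 higher and 2 to 3 lower when single libraries were left out. In naive_GEMy against naive_untreated, 6 members were higher with only the compared groups or with array weights, and leaving out single libraries gave 2 to 4 higher and 0 to 1 lower. In tumor_GEMy against tumor_untreated, the higher count was 0 with only the compared groups. The lower count was 2 with only the compared groups, 3 with no minimum or hemoglobin as a covariate, 8 with array weights, and 3 to 8 with single libraries left out. In tumor_GEMy against naive_GEMy, 2 were higher with hemoglobin as a covariate. There 0 were lower with no minimum, median-of-ratios scaling, quantile normalization or hemoglobin, and 0 to 2 with single libraries left out. The interaction was lower for 3 with voom, 10 with array weights, and 5 to 9 with single libraries left out. Calls over all genes moved in the same fits. With array weights they were 1217 higher in naive_GEMy against naive_untreated (576 in the reported fit), 1664 lower in tumor_GEMy against tumor_untreated (383) and 1397 lower for the interaction (537). With only the compared groups they were 829 higher in naive_GEMy against naive_untreated and 86 lower in tumor_GEMy against tumor_untreated. Member counts are therefore to be read against these. The cause of these changes was not tested. Over 24 pairs of libraries with the same number, correlations of deviations from group means were -0.31 to 0.59, 12 of them over 0.1. Pairs with different numbers had -0.47 to 0.39. The labels do not say what libraries of the same number share, and the reported fit did not take the numbers as pairs. With a replicate block on those numbers, the counts were 9 higher and 2 lower, 4 and 1, 1 and 6, 4 and 2, and 0 and 8 for the interaction. Over all genes that block gave more calls on both sides in every comparison. Lower calls were 499 in tumor_GEMy against tumor_untreated (383 in the reported fit) and 642 for the interaction (537). Whether libraries of the same number share a source of spread was not tested further. Depth limits the 8 untested members, at 14 reads or fewer per lung.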
